A study of Mus musculus with 10 samples.

Results

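The Sox and Forkhead genes encode 2 large families of DNA-binding transcription factors, and their ribosome-bound mRNAs were compared between dorsal and ventral mossy cell (MC)-enriched populations of the mouse hippocampus. The members were the protein-coding genes whose symbol in the GRCm38 annotation is Sox followed by a number, or Fox followed by a letter from a to s and a number. This rule found 63 genes (19 Sox and 44 Forkhead) among the 54838 gene identifiers that were counted. It uses names alone and no measured value.

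Sox proteins bind the minor groove of DNA through an HMG box and bend it, and they are grouped by sequence into SoxB1, SoxC, SoxD, SoxE and other subgroups. In the brain, SoxB1 factors keep neural progenitors undifferentiated, SoxC factors act in young neurons, and SoxE factors specify and maintain glia. Forkhead proteins bind DNA through a winged-helix domain. They include the FoxP repressors of differentiating neurons, FOXJ1 of motile cilia, and the FoxO factors, which AKT phosphorylation keeps out of the nucleus when insulin or growth factors are present.

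The libraries came from male C57BL/6 Drd2-Cre;Eef1a1LSL.eGFPL10a/+ mice (MC-TRAP), about 10 weeks old, in which Cre driven by Drd2 switches on EGFP-tagged ribosomal protein L10a. Both groups carried this genotype, and they differ in the part of the hippocampus that was dissected. Translating ribosome affinity purification (TRAP) precipitates the tagged ribosomes with their mRNA, and the dorsal and the longer ventral part of the hippocampus were dissected from each animal, without the ventral subiculum. Each of the 5 Dorsal and 5 Ventral libraries was made from the pooled tissue of 5 mice, so that the p-values measure the spread between pools. The model is limited in that Drd2-Cre also tags ribosomes in interneurons outside the hilus and in neurons of the ventral subiculum. The paper calls these interneurons sparse in its images. Its limitations add that a substantial part of the Drd2-expressing interneurons can be captured, and that a little subicular tissue may remain.

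Gene counts ranged from 11138676 to 20594364 per library. A floor of 3 counts corresponds to 0.146 to 0.269 counts per 1e6 counts of the unscaled library total. Some values given below lie under this floor. Levels are given as CPM (counts per 1e6 counts, with the library total scaled by TMM). Read pairs that the counting assigned to no annotated feature made up 21.8 to 33.9% in Dorsal and 11.6 to 19.3% in Ventral libraries. These ranges do not overlap. Such pairs can lie between genes or in introns, which were not told apart. Of the marker lists, the mossy cell list had 4 genes called dorsal-enriched and 2 ventral-enriched of 10 tested, the dentate granule cell list 3 and 0 of 8, and the microglia list 1 and 0 of 8. Calb2 (calretinin), the marker of ventral MCs, was at 65.0 ± 9.30 CPM in the Dorsal group and at 615 ± 94.4 CPM in the Ventral group (mean ± SD over 5 libraries, as in all that follows, Dorsal first), and Drd2 itself was at 28.1 ± 3.95 and 20.7 ± 4.36 CPM. In these bulk precipitates, fewer cells of a type and less RNA per cell cannot be told apart.

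Of the 63 members, 35 (14 Sox and 21 Forkhead) passed the filter of CPM above 1 in at least 2 libraries. The other 28 stayed under it, and 25 of these were below 1 CPM in every library. No read was counted for Foxa2, Foxd3, Foxi1, Foxn4 and Foxp3. The members under the filter that exceeded 1 CPM in a single library were Foxd4 (5.10 CPM, 58 counts, in Ventral replicate 2), Foxd2 (1.14 CPM in the same library) and Foxd1 (1.11 CPM in Ventral replicate 1). Among those under the filter are Sox3, the remaining SoxB1 member, at up to 0.392 CPM, Sox18 of vascular endothelium at up to 0.839 CPM, and the FoxA, FoxB, FoxE, FoxL and FoxS genes.

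The levels of the 35 tested members spanned more than 2 orders of magnitude when compared per exonic length. Among the highest were Sox2 (22.6 ± 1.99 and 16.7 ± 4.64 CPM per kb), Foxk2 (18.4 ± 0.969 and 18.6 ± 1.25), Foxn3 (16.8 ± 2.03 and 14.4 ± 2.48) and Foxk1 (15.5 ± 3.14 and 10.2 ± 1.61). From Sox2 downwards, the ranges over the 10 libraries overlapped at every step of this order, so that the order of neighbours is not resolved. The lowest were Foxc1, Foxq1 and Foxp2, at 0.175, 0.146 and 0.113 CPM per kb on average over the 10 libraries.

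**Figure D1:**
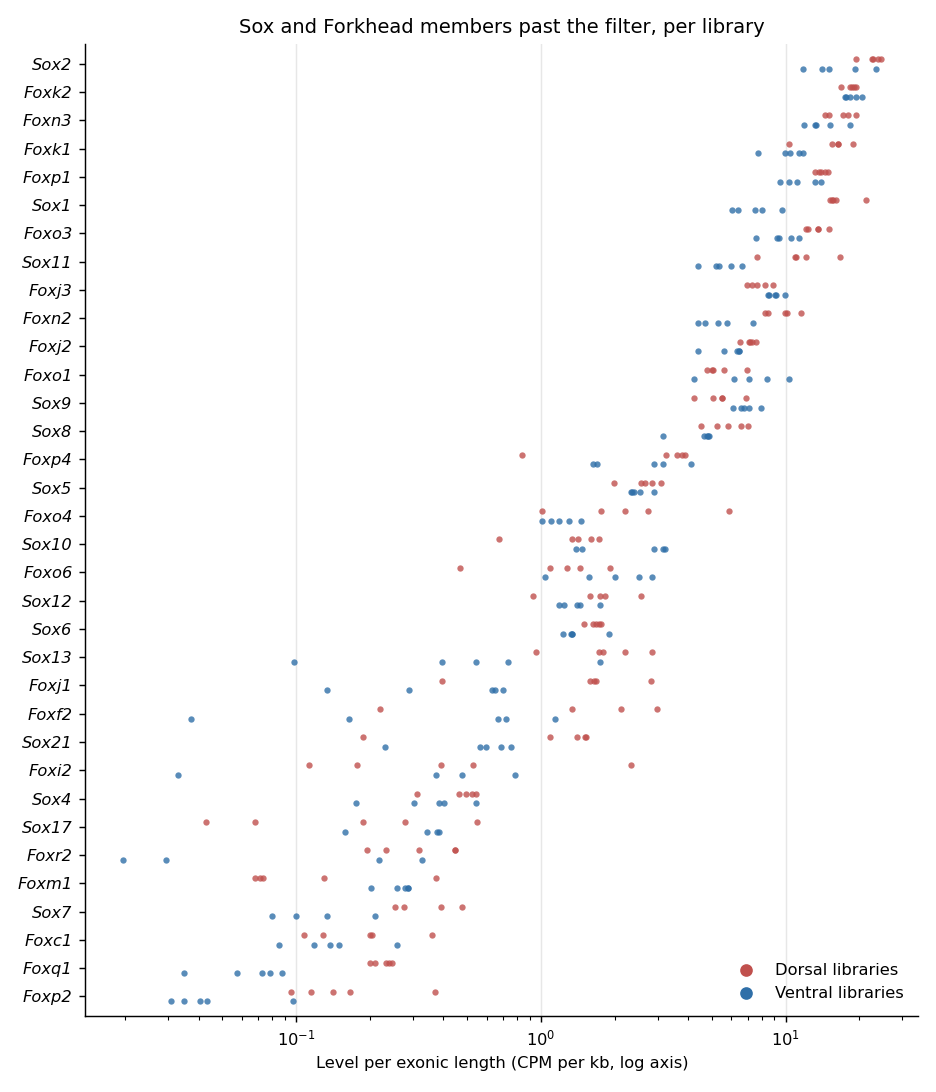
Level of 34 tested members in every library, as CPM per kb of exonic length on a log axis, with Dorsal libraries in red and Ventral libraries in blue (libraries at 0 are not drawn). Sox2 averages 22.6 CPM per kb in Dorsal libraries and Foxp2 is at the bottom, and the Sox1, Sox11 and Foxn2 points of the groups do not overlap.

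To be called, a gene needed an adjusted p below 0.05 over all 16806 tested genes (edgeR's quasi-likelihood test), and its group means, each with 1 CPM added, had to differ by more than 0.58 on the log2 scale. In all, 9 members were called dorsal-enriched, namely Sox1, Sox11, Sox13, Foxn2, Foxk1, Foxq1, Foxp2, Foxj1 and Foxo4, and none was called ventral-enriched. This is 25.7% of the 35 members called dorsal-enriched, beside a background of 15.7% of all tested genes (11.4% of the 13549 protein-coding ones), and 0 ventral-enriched beside 9.85% (10.3% of protein-coding genes). DESeq2 gave 9 and 0 as well. At an unadjusted p below 0.05, 2 members were lower in Dorsal libraries (Sox9 and Sox10) and 14 were higher. In either direction, 7534 of the 16806 tested genes and 5818 of the 13549 protein-coding ones had such a p. The share of 16 of 35 members is close to this background. Fitted log2 fold changes were above 0 for 26 of 35 members, with a median of 0.38, whereas the median of all tested protein-coding genes was -0.04.

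The calls can be split by level. Among the tested members, 5 passed the filter through the Dorsal libraries alone, with at most 1 Ventral library above 1 CPM. These were Foxq1 and Foxp2, which were called, and Foxc1, Foxr2 and Sox7, which were not. Foxm1 passed through the Ventral libraries alone, and 7 of the other 29 members were called dorsal-enriched. Among members with a mean CPM of 10 or more, 4 of 18 (22.2%) were called dorsal-enriched, beside 8.64% of the protein-coding genes at that level. Of the 11 members below 10 CPM that passed in both groups, 3 were called dorsal-enriched (Sox13, Foxj1 and Foxo4). Among all tested protein-coding genes below 10 CPM, 16.0% were called dorsal-enriched. No share was computed for genes that passed the filter in both groups. The counts of 7 of 29 and 3 of 11 therefore have no direct background. The percentage of read pairs assigned to no feature separates the groups by itself. When it entered the fit as a covariate, the calls fell to 2 of 35 (Sox1 and Sox11). The fold threshold in that fit still used the unadjusted group means, so that the covariate acted through the p-value alone. Foxo3 also kept an edgeR adjusted p below 0.05 there and stayed under the fold threshold. The calls over all genes fell to 833 dorsal-enriched and 339 ventral-enriched. The part of this percentage in the member results cannot be told apart from the region.

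**Figure D2:**
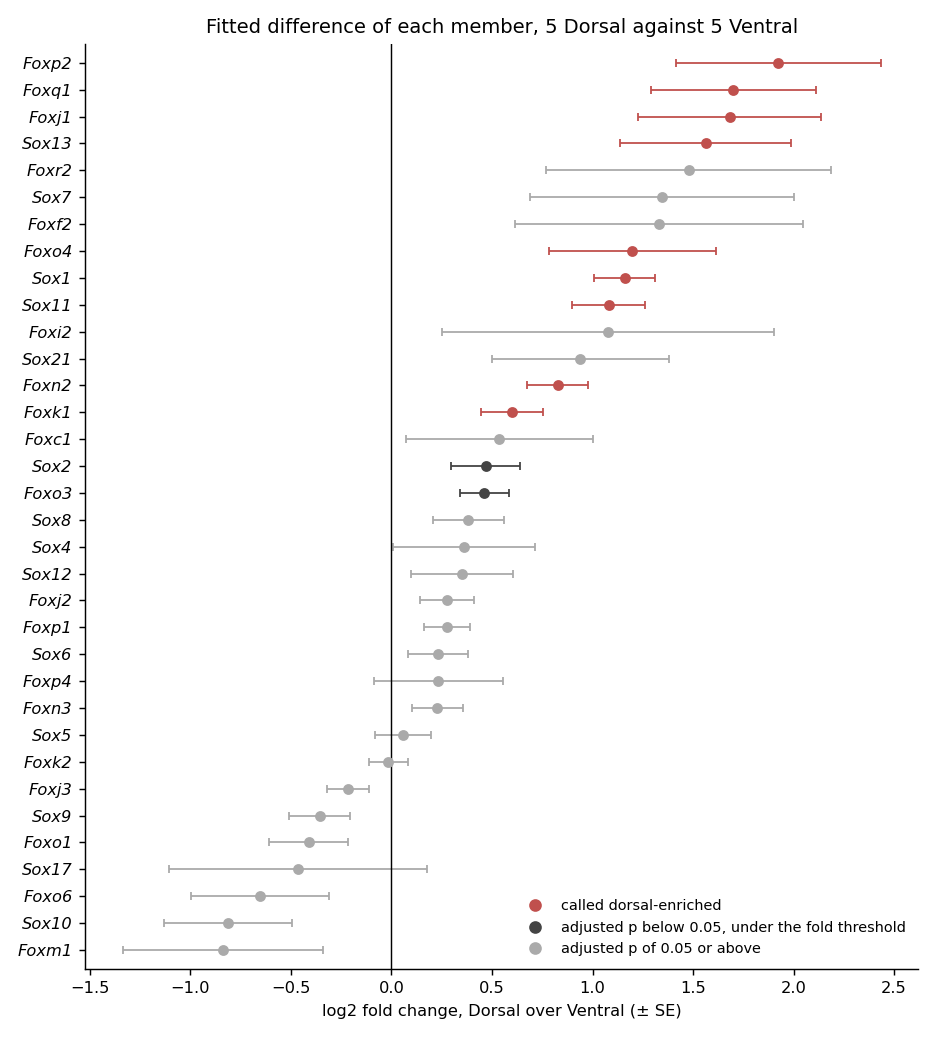
Fitted log2 fold change of Dorsal over Ventral with its standard error for 34 tested members, n = 5 libraries per group, red where called dorsal-enriched, dark grey where the adjusted p passed and the fold threshold did not, and light grey otherwise. The 9 called members lie to the right of 0, and the 2 in dark grey are Foxo3 and Sox2.

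The SoxB1 gene Sox1 had the smallest adjusted p of all members. SOX1 marks neural progenitors and is also kept in some mature neurons. Its mRNA (ENSMUSG00000096014, a single-exon gene on the plus strand of chr8:12395295-12400126 in GRCm38) was at 103, 75.7, 73.1, 77.4 and 74.4 CPM in Dorsal replicates 1 to 5, and at 29.2, 46.8, 38.8, 30.9 and 36.3 CPM in the Ventral ones. The groups do not overlap, and Dorsal replicate 1 is the highest library. The log2 fold change was 1.16 ± 0.15 (SE), which is 2.23-fold, with an edgeR adjusted p of 0.000141, and the call held in each of the 17 alternative settings and with each of the 10 libraries left out in turn.

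Sox2, the other measured SoxB1 gene and a core factor of neural stem cells and astrocytes, differed less. Sox2 (ENSMUSG00000074637, chr3:34650405-34652461, plus strand, single exon) was at 39.7, 49.1, 46.3, 46.9 and 50.3 CPM in Dorsal libraries and at 24.1, 39.6, 48.2, 31.0 and 28.9 CPM in Ventral ones. Ventral replicate 3 lies within the Dorsal range, so that the groups overlap. The log2 fold change was 0.47 ± 0.17 with an edgeR adjusted p of 0.0471, under the fold threshold, and Sox2 was not called. Its adjusted p ranged from 0.00871 to 0.115 as single libraries were left out. Over the 17 alternative settings, the log2 fold change of Sox2 ranged from 0.0091 to 0.51. Its adjusted p (edgeR or DESeq2) ranged from 0.0296 to 0.991 over these settings.

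Long noncoding genes that span these loci, which the naming rule leaves out and which were looked up after the member values were seen, followed the same order. Sox1ot (chr8:12385771-12436768, plus strand), within which Sox1 lies, was called dorsal-enriched at 86.9 ± 7.46 against 53.7 ± 13.7 CPM (log2 fold change 0.71 ± 0.16, edgeR adjusted p = 0.00491). Sox2ot (chr3:34104270-34682619, plus strand), within which Sox2 lies, was at 59.1 ± 13.1 and 56.5 ± 9.83 CPM and was not called (0.07 ± 0.16, adjusted p = 0.760). The annotated exons of Sox1 and Sox2 share no bases with those of their hosts, although the counting strand is not stated.

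Among the SoxC genes, which act as neurons leave the progenitor state and extend processes, Sox11 was dorsal-enriched. Sox11 (ENSMUSG00000063632, chr12:27334264-27342574, minus strand, single exon) was at 139, 90.9, 63.6, 101 and 92.1 CPM in Dorsal and at 55.3, 49.7, 44.3, 36.4 and 43.1 CPM in Ventral libraries. Every Dorsal library was above every Ventral one. This is a log2 fold change of 1.08 ± 0.18 (2.11-fold, edgeR adjusted p = 0.000858), and this call also held in the 17 settings and the 10 fits with a library left out.

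Sox4, the SoxC gene that usually accompanies Sox11 in newborn neurons, was low and not called. It was at 1.50, 2.59, 2.38, 2.22 and 2.51 CPM in Dorsal and at 2.60, 1.93, 0.843, 1.83 and 1.46 CPM in Ventral libraries, and the groups overlap. Sox4 had a log2 fold change of 0.36 ± 0.35 (edgeR adjusted p = 0.456), and 54.6% of its exonic length is shared with the antisense gene Gm26735, so that its own level is uncertain. Sox12, the third SoxC gene, was at 7.71 ± 2.61 and 6.24 ± 0.952 CPM (0.35 ± 0.25, adjusted p = 0.302).

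SoxD proteins lack an activation domain of their own and tune the action of other Sox factors, and of this subgroup Sox13 was called. Sox13 (ENSMUSG00000070643, chr1:133382303-133424377, minus strand) was at 4.13, 9.53, 12.2, 7.43 and 7.76 CPM in Dorsal and at 3.16, 7.56, 0.421, 2.34 and 1.70 CPM in Ventral libraries. Ventral replicate 2 lies among the Dorsal values, and the other Ventral libraries lie below all of them. Sox13 had a log2 fold change of 1.56 ± 0.42 (edgeR adjusted p = 0.0130), and the call was lost with the dispersions of edgeR 3 (adjusted p = 0.0609).

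Sox5 and Sox6, the SoxD genes that shape cortical projection neurons and medial ganglionic eminence interneurons, did not pass the test. Sox5 was at 44.7, 28.6, 36.9, 41.1 and 38.2 CPM in Dorsal and at 41.7, 33.6, 33.9, 34.4 and 36.7 CPM in Ventral libraries (fitted log2 fold change 0.06 ± 0.14, adjusted p = 0.781). Sox6 was at 26.1, 24.9, 25.6, 22.2 and 24.2 CPM in Dorsal and at 19.8, 28.0, 19.9, 18.2 and 19.7 CPM in Ventral libraries (0.23 ± 0.15, adjusted p = 0.244). For Sox6, Ventral replicate 2 is the highest library of either group, and the other 4 Ventral libraries are below every Dorsal one. Of the 15 GABAergic interneuron markers, 3 (Lhx6, Sst and Pvalb) were called ventral-enriched and 1 (Dlx6) dorsal-enriched. Their median log2 fold change was -0.40, and 11 of the 15 had an unadjusted edgeR p below 0.05, in either direction. Summed levels were 3987 to 5162 CPM in Dorsal and 4863 to 6187 CPM in Ventral libraries. These sums are mostly Gad2, at 2848 ± 452 and 3168 ± 406 CPM, which was not called.

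The sequences at the starts of the called Sox genes are shown so that the called and the uncalled SoxB1 gene can be compared (the promoter table used has no entry for the 6 called Forkhead genes). Each run is the 250 bases before the RefSeq start, 5′ to 3′ on the gene's strand in GRCm38.p6, with CpG dinucleotides in capitals. The gene models given above start further upstream for Sox1 and Sox13, so that 224 and 165 of the 250 bases lie within those genes, and 0 for Sox2 and Sox11. Sox2 is set beside them as the SoxB1 gene that was not called.
Sox1 (chr8:12395269-12395518, plus strand): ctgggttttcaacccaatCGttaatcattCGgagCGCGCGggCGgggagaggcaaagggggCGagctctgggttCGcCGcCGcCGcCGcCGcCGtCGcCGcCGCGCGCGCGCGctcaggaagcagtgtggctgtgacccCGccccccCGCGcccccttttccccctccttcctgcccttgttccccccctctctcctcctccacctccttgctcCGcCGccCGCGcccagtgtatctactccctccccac
Sox2 (chr3:34649745-34649994, plus strand): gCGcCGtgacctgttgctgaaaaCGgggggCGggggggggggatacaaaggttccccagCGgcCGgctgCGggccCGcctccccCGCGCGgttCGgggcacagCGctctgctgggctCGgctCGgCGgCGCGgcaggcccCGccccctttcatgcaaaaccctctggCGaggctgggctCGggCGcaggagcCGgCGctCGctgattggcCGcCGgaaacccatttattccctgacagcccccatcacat
Sox11 (chr12:27342719-27342968, minus strand): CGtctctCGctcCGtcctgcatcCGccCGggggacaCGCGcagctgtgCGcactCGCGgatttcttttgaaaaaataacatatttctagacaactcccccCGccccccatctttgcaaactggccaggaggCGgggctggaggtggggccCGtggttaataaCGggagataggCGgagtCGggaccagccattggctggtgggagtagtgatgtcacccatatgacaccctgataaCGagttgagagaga
Sox13 (chr1:133424213-133424462, minus strand): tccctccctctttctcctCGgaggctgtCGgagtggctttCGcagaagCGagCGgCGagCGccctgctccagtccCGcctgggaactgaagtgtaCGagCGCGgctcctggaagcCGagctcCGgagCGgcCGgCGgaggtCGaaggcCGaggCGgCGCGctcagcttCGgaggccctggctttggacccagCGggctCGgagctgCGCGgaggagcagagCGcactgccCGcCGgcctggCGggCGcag

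These windows hold 29 CpG in Sox1, 27 in Sox2, 17 in Sox11 and 31 in Sox13, whereas the median over all 32851 RefSeq promoter windows of that length is 6. As many CpG as in Sox1 or more occur in 6.78% of all windows, and as many as in Sox11 in 23.5%. A forkhead core (TGTTTAC on either strand) was in none of the 4 windows and is in 3.17% of all windows. Of the Sox cores searched on either strand, ACAAAG was found in the Sox2 window and not in the other 3 (16.5% of all windows hold it), and ACAATG was in none of the 4 (10.7% of all windows). A match describes letters in a window and no more.

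The SoxE genes of glia went in different directions, and none passed the thresholds. Sox10, the factor that oligodendrocyte precursors and myelinating oligodendrocytes require, was lower in Dorsal libraries. Sox10 (ENSMUSG00000033006, chr15:79154908-79165240, minus strand) was at 2.07, 5.25, 4.90, 4.32 and 4.08 CPM in Dorsal and at 4.26, 4.48, 9.78, 9.66 and 8.86 CPM in Ventral libraries. Ventral replicates 1 and 2 sit among the Dorsal values, and Ventral replicates 3 to 5 lie above all of them. Sox10 had a log2 fold change of -0.81 ± 0.32 with an edgeR adjusted p of 0.0623. It passed both thresholds as ventral-enriched without Ventral replicate 1 (-0.98, adjusted p = 0.0253) and without Ventral replicate 2 (-0.92, adjusted p = 0.0366).

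Of the oligodendrocyte list, 7 of 14 tested genes were called dorsal-enriched and none ventral-enriched. The median log2 fold change of the tested genes was 0.66, and the summed list was at 2904 to 3486 CPM in Dorsal and 1159 to 2114 CPM in Ventral libraries. Myrf, the transcription factor of myelination downstream of SOX10, was at 21.4 ± 3.70 and 12.2 ± 4.56 CPM (0.85 ± 0.23, adjusted p = 0.0128). Of the oligodendrocyte precursor list, 3 of 8 (C1ql1, Neu4 and Tnr) were called dorsal-enriched. The part of these cells in the Sox10 values was not tested.

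Sox9, the SoxE factor of astrocytes and of the onset of gliogenesis, was at 28.5, 22.8, 17.5, 20.98 and 22.7 CPM in Dorsal and at 29.4, 25.1, 33.0, 28.0 and 27.3 CPM in Ventral libraries. Its lowest 4 libraries are Dorsal, and Dorsal replicate 1 lies among the Ventral ones. Sox9 had a log2 fold change of -0.36 ± 0.15 (edgeR adjusted p = 0.0805). The astrocyte list was called dorsal-enriched for 5 of 12 genes and ventral-enriched for 1 (Aldh1l1). Aldoc was also lower in Dorsal libraries, without overlap but under the fold threshold (-0.56 ± 0.13, edgeR adjusted p = 0.00532). The sum of the list was 2103 to 2405 CPM in Dorsal and 914 to 1604 CPM in Ventral libraries. It is mostly the glutamate transporter Slc1a2, at 1771 ± 80.4 and 868 ± 161 CPM, so that it does not stand for every marker. Sox8, the third SoxE gene, was at 18.2 ± 3.14 and 13.9 ± 2.27 CPM (0.38 ± 0.18, adjusted p = 0.107).

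**Figure D3:**
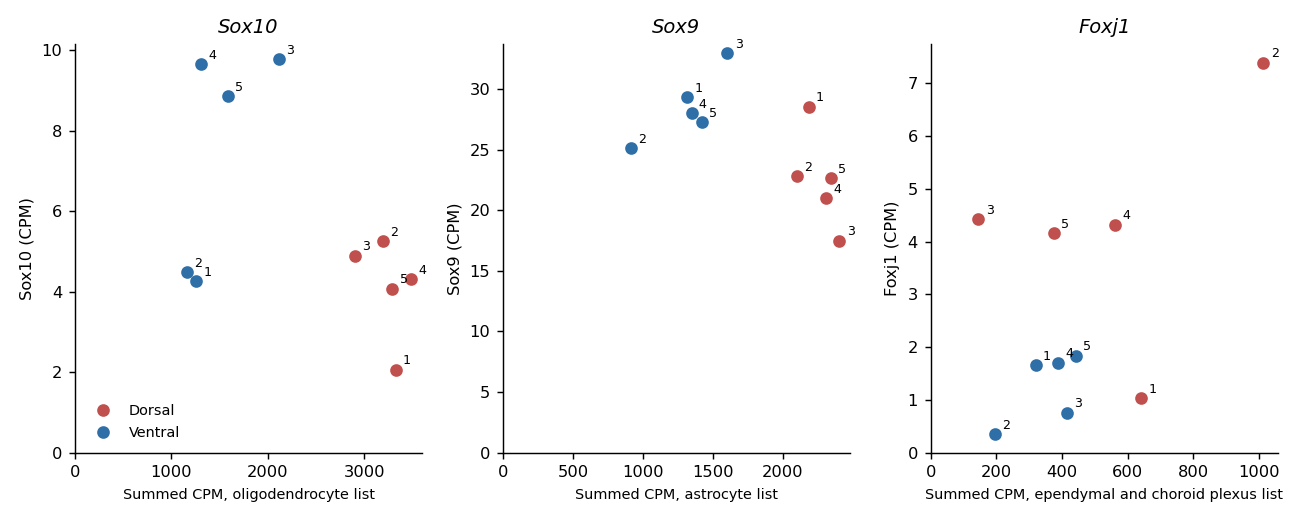
Level of Sox10, Sox9 and Foxj1 (CPM, vertical axes) against the summed CPM of the oligodendrocyte, astrocyte, and ependymal and choroid plexus lists (horizontal axes), 1 numbered point per library, Dorsal in red and Ventral in blue. In the first 2 panels the Dorsal libraries lie at 2904 CPM or more and at 2103 CPM or more, to the right of every Ventral library, without being higher in Sox10 or Sox9. The astrocyte sum is mostly 1 gene, Slc1a2.

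The SoxB1 and SoxC genes are also read as progenitor and neuroblast genes, whose list was mixed here. Of its 9 tested genes, 4 were called dorsal-enriched (among them Nes, Igfbpl1 and Hopx) and 2 ventral-enriched (Tubb3 and Calb2, both also expressed by mature neurons). Eomes and Tfap2c were under 1 CPM in every library and were not tested. Eomes was at 0, 0.713, 0.476, 0.539 and 0.471 CPM in Dorsal libraries and at 0 to 0.0471 CPM in Ventral ones. Igfbpl1, a gene of young neurons, was at 4.41 to 11.6 CPM in Dorsal libraries and at 0, 2.81, 0.0843, 0 and 0 CPM in Ventral ones. Neurod1, at 35.8 ± 6.58 and 36.0 ± 8.45 CPM, was not called (0.007 ± 0.17, edgeR adjusted p = 0.983). Dcx, at 65.2 ± 11.5 and 46.4 ± 8.93 CPM, stayed under the fold threshold (0.47 ± 0.15, adjusted p = 0.0298). Sstr2 was not called either (0.27 ± 0.39, adjusted p = 0.614). Sox21, a SoxB2 gene that opposes SoxB1 action, was at 4.35 ± 2.15 and 2.16 ± 0.770 CPM and not called (0.94 ± 0.44, edgeR adjusted p = 0.113). Without Dorsal replicate 2, its lowest library at 0.713 CPM, it was called dorsal-enriched (1.24, adjusted p = 0.0078).

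The tested SoxF genes of vascular endothelium were near the limit of the filter, with Sox17 at 1.08 ± 0.979 and 1.20 ± 0.802 CPM and Sox7 at 0.922 ± 0.594 and 0.346 ± 0.254 CPM. Without Dorsal replicate 1, in which no read was counted, Sox7 was called dorsal-enriched (1.59, adjusted p = 0.0383). None of the 11 tested endothelial markers was called by edgeR or DESeq2, although 3 had an unadjusted p below 0.05, and their sum was 21.3 to 69.5 CPM in Dorsal and 20.9 to 94.6 CPM in Ventral libraries. Tie1 was under 1 CPM throughout. Of the mural and meningeal fibroblast list, 2 of 8 tested genes were called dorsal-enriched (Col1a1 and Col1a2) and 1 ventral-enriched (Dcn), while Foxf2 and Foxc1, which act in pericytes and meninges, were not called (1.33 ± 0.72, adjusted p = 0.164, and 0.54 ± 0.46, adjusted p = 0.390).

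Foxn2 had the clearest difference among the Forkhead genes at a high level. Foxn2 (ENSMUSG00000034998, chr17:88440711-88490533, plus strand), a broadly expressed relative of the checkpoint factor FOXN3, was at 60.9, 84.9, 74.5, 62.1 and 73.3 CPM in Dorsal and at 38.9, 32.2, 54.4, 42.3 and 34.4 CPM in Ventral libraries. The groups do not overlap. Foxn2 had a log2 fold change of 0.83 ± 0.15 (1.77-fold, edgeR adjusted p = 0.00144). The call was lost in 1 of 17 settings, with the percentage assigned to no feature as a covariate (0.27, adjusted p = 0.542). Foxn3 was at 194 ± 23.3 and 165 ± 28.5 CPM and was not called (0.23 ± 0.13, adjusted p = 0.176).

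Foxk1, a repressor of autophagy genes and a regulator of glycolysis, was just past the fold threshold. Foxk1 (ENSMUSG00000056493, chr5:142401497-142462011, plus strand) was at 78.3, 118, 143, 124 and 124 CPM in Dorsal and at 86.2, 89.5, 58.3, 79.1 and 75.3 CPM in Ventral libraries. Dorsal replicate 1 lies among the Ventral values, and the other 4 Dorsal libraries lie above them. Foxk1 had a log2 fold change of 0.60 ± 0.16 (edgeR adjusted p = 0.01), and the call was lost without Dorsal replicate 3 (0.53), Dorsal replicate 4 (0.58) or Ventral replicate 3 (0.52). Its paralog Foxk2 was at 96.9 ± 5.10 and 98.0 ± 6.58 CPM (-0.02 ± 0.10, adjusted p = 0.919).

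Of the 4 FoxO genes, 1 was called (Foxo4). Foxo3 (ENSMUSG00000048756, chr10:42181841-42276755, minus strand) controls stress resistance in neurons and quiescence in neural stem cells. It was at 114, 102, 91.8, 103 and 93.4 CPM in Dorsal and at 85.8, 69.7, 57.2, 79.5 and 71.2 CPM in Ventral libraries. The groups do not overlap, and the log2 fold change was 0.46 ± 0.12 (edgeR adjusted p = 0.0106), under the fold threshold. With offsets for GC content and length it was called dorsal-enriched (0.74, adjusted p = 0.00207). Over the 17 alternative settings its adjusted p (edgeR or DESeq2) was at most 0.0313.

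Foxo1, the FoxO factor of the insulin response, was at 60.1, 43.4, 41.5, 48.6 and 43.8 CPM in Dorsal and at 53.2, 36.5, 89.4, 61.7 and 72.8 CPM in Ventral libraries. The Ventral values spread on both sides of the Dorsal ones, and the log2 fold change was -0.41 ± 0.20 (edgeR adjusted p = 0.120). Foxo6, the FoxO gene most restricted to neurons, was at 3.25 ± 1.39 and 5.22 ± 1.89 CPM (-0.65 ± 0.34, adjusted p = 0.154). Foxo4 (ENSMUSG00000042903, chrX:101254528-101260873, plus strand) was called dorsal-enriched, at 9.58, 20.4, 3.54, 7.67 and 6.12 CPM in Dorsal and at 4.54, 5.10, 4.13, 3.54 and 3.82 CPM in Ventral libraries. Dorsal replicate 2 is by far the highest library, and Dorsal replicate 3 lies at the level of the Ventral ones. Foxo4 had a log2 fold change of 1.20 ± 0.42 (adjusted p = 0.0388), and the call was lost in 7 of the 10 fits with a library left out (without Dorsal replicates 1, 2 or 4 or Ventral replicates 1, 3, 4 or 5), among them without Dorsal replicate 2 (0.66, adjusted p = 0.0993).

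The genes on either side of FoxO in its pathway were mostly not called. Of 16 genes of insulin and AKT signalling upstream of FoxO, none was called by edgeR, 4 had an unadjusted p below 0.05 and DESeq2 called 1, and the median log2 fold change was -0.04. Of 15 tested FoxO targets, Txnip, an inhibitor of thioredoxin and of glucose uptake, was called dorsal-enriched (1.21 ± 0.39, adjusted p = 0.0303). Pink1, the kinase of mitochondrial quality control (-0.81 ± 0.11, adjusted p = 0.000228), and Gadd45a, a DNA damage response gene (-0.98 ± 0.23, adjusted p = 0.00656), were ventral-enriched. The median of the targets was -0.12. Of the 18 genes for Sox and Forkhead partners, Pou2f1 and Nfatc3 were dorsal-enriched, and Ctnnb1 (beta-catenin) and Mta1 were ventral-enriched.

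The 3 remaining called Forkhead genes stood at low levels. Foxp2, a repressor known from speech disorders and from striatal, thalamic and deep cortical neurons, was at 2.72, 6.03, 2.31, 1.56 and 1.88 CPM in Dorsal and at 0.665, 1.58, 0.506, 0.568 and 0.707 CPM in Ventral libraries. Dorsal replicate 2 is the highest, and Ventral replicate 2 lies just above the lowest Dorsal library. For Foxp2 (ENSMUSG00000029563, chr6:14901349-15441977, plus strand) the log2 fold change was 1.92 ± 0.51 (edgeR adjusted p = 0.0102), from 24 to 93 counts in Dorsal and 6 to 18 counts in Ventral libraries. The call held with each library left out. Of 9 tested striatal projection neuron markers, 2 were called dorsal-enriched (Penk and Six3) and 1 ventral-enriched (Tac1), and of 9 thalamic markers 3 (Prkcd, Zic1 and Zic4) and 2 (Slc17a6 and Calb2). Adora2a of the striatal list and Gbx2 of the thalamic list were under 1 CPM in every library. Ventral replicate 2, the highest Ventral library for Foxp2, was also the highest Ventral one for Prkcd, Zic1, Zic4 and Six3 (75.1, 189, 12.4 and 2.99 CPM). It was not for the other called genes of these lists. In Dorsal replicate 2, where Foxp2 was highest, Six3 had its lowest Dorsal value (1.17 CPM). The part of such cells in the Foxp2 result was not tested.

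The related repressors Foxp1 and Foxp4 were not called. Foxp1, which acts in striatal, cortical and hippocampal neurons, was at 182, 205, 189, 192 and 198 CPM in Dorsal and at 191, 180, 131, 153 and 142 CPM in Ventral libraries (fitted log2 fold change 0.28 ± 0.11, edgeR adjusted p = 0.0710). Ventral replicate 1 lies within the Dorsal range. Foxp4 was at 15.1 ± 6.25 and 13.3 ± 5.14 CPM (0.23 ± 0.32, adjusted p = 0.605).

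Foxj1, the master regulator of motile cilia in ependymal cells, was the next. Foxj1 (ENSMUSG00000034227, chr11:116330704-116335399, minus strand) was at 1.03, 7.39, 4.42, 4.32 and 4.16 CPM in Dorsal and at 1.66, 0.351, 0.758, 1.70 and 1.84 CPM in Ventral libraries. Dorsal replicate 1 lies among the Ventral values, and the other 4 lie above them. This gave a log2 fold change of 1.68 ± 0.45 (edgeR adjusted p = 0.0124), and the call held with each library left out. Of the 10 ependymal and choroid plexus markers, 5 were called dorsal-enriched (Kl, Clic6, Ccdc153, Tmem212 and Rsph1) and none ventral-enriched, with sums of 642, 1014, 145, 563 and 375 CPM in Dorsal and 196 to 443 CPM in Ventral libraries. The sum is mostly Ttr, a choroid plexus gene at 454 ± 294 and 307 ± 92.4 CPM that was not called. Rsph1, a gene of motile cilia, was at 4.60, 11.6, 7.07, 7.61 and 6.90 CPM in Dorsal libraries. In Ventral libraries it was at 2.60, 2.72, 3.96, 3.54 and 3.06 CPM. Like Foxj1, it was highest in Dorsal replicate 2 and lowest among Dorsal libraries in replicate 1. Other markers of the list did not share this order. Ccdc153 and Dynlrb2 were lowest among Dorsal libraries in replicate 2 (1.43 and 0.454 CPM). Tmem212 was lowest at nearly equal levels in Dorsal replicates 1 and 2 (0.657 and 0.648 CPM). Kl and Clic6 were lowest among them in replicate 3 (17.7 and 10.4 CPM). The part of these cells in the Foxj1 result was not tested.

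Foxq1, a forkhead gene of epithelia and brain endothelium, was the called member of lowest CPM. Foxq1 (ENSMUSG00000038415, chr13:31556134-31560976, plus strand, single exon) was at 1.13, 0.973, 1.16, 1.20 and 1.02 CPM in Dorsal and at 0.277, 0.351, 0.169, 0.379 and 0.424 CPM in Ventral libraries, which are 12 to 20 and 2 to 9 counts. The groups do not overlap, and the log2 fold change was 1.70 ± 0.41 (edgeR adjusted p = 0.00446). As 66.1% of its exonic length is shared with the antisense gene A530084C06Rik, these counts cannot be assigned to Foxq1 alone.

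**Figure D4:**
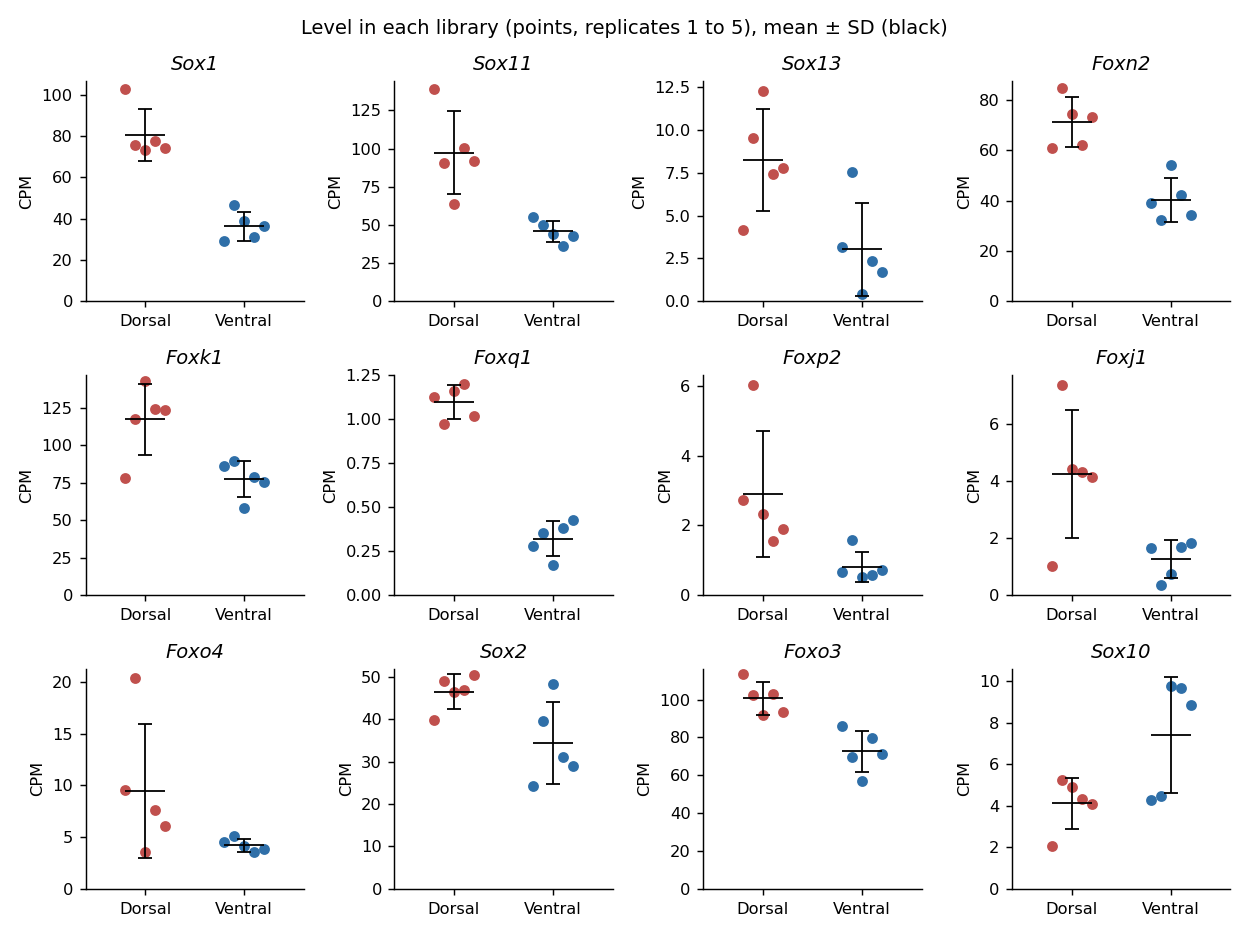
Level in CPM of the 9 called members and of Sox2, Foxo3 and Sox10 in each of the 5 Dorsal (red) and 5 Ventral (blue) libraries, with the group mean and SD in black and each vertical axis starting at 0. Sox1, Sox11, Foxn2, Foxq1 and Foxo3 do not overlap between the groups, whereas Foxo4 reaches 20.4 CPM in Dorsal replicate 2 alone.

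The remaining tested Forkhead genes gave no call. Foxj2 was at 38.1 ± 2.05 and 31.3 ± 4.77 CPM, without overlap but with an edgeR adjusted p of 0.121 (0.28 ± 0.13), and Foxj3 was at 85.4 ± 8.36 and 99.0 ± 6.34 CPM (-0.22 ± 0.10, adjusted p = 0.120). Foxm1, a factor of dividing cells, was at 0.408, 0.420 and 0.392 CPM in Dorsal replicates 3 to 5, 0.751 and 2.14 CPM in Dorsal replicates 1 and 2, and 1.16 to 1.65 CPM in Ventral libraries (-0.84 ± 0.50, adjusted p = 0.205). Without Dorsal replicate 2 it was called ventral-enriched (-1.65, adjusted p = 0.0087). Of the 10 markers of proliferating cells, 5 passed the filter and 2 were dorsal-enriched (Ccna2 and Aurkb), and Top2a, Ccnb1, Cdk1 and Ube2c were under 1 CPM in every library. Foxi2 and Foxr2 were at 1.88 ± 2.45 and 1.05 ± 0.372 CPM in Dorsal libraries and at 0.885 ± 0.868 and 0.383 ± 0.470 CPM in Ventral ones, and Foxr2 was called dorsal-enriched without Ventral replicate 1 (2.51, adjusted p = 0.0256).

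In all, 6 members did not overlap between the groups (Sox1, Sox11, Foxn2, Foxq1, Foxo3 and Foxj2, all higher in Dorsal libraries), which is close to the background, since 18.2% of all tested genes and 18.1% of the protein-coding ones do not overlap. The 7 tested members with a single exon (Sox1, Sox2, Sox4, Sox11, Sox21, Foxc1 and Foxq1) had log2 fold changes above 0, 3 of them were called dorsal-enriched and the same 3 did not overlap between the groups. Among the 321 single-exon protein-coding genes tested, 51 (15.9%) were called dorsal-enriched and 46 ventral-enriched, 63 (19.6%) did not overlap, and their median log2 fold change was -0.08. Among the 28 members with several exons, 6 (21.4%) were called dorsal-enriched, beside 11.3% of such protein-coding genes.

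Closely related genes could also be compared within a library, where depth and scaling cancel. For each pair of one subfamily with a mean of at least 10 CPM in both genes, the log2 ratio of their levels was compared between the groups by a two-sided exact permutation test over the libraries, whose smallest possible p is 0.00794. This comparison was set up after the member values had been seen, and p-values were adjusted over the 8 pairs. The ratio of Sox1 to Sox2 was 0.79 ± 0.33 in Dorsal and 0.11 ± 0.27 in Ventral libraries (exact p = 0.00794, adjusted p = 0.0317), without overlap. That of Foxj2 to Foxj3 was -1.16 ± 0.11 and -1.68 ± 0.24 (exact p = 0.00794, adjusted p = 0.0317), also without overlap.

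The FoxO pair showed the largest difference of group means, with a log2 ratio of Foxo1 to Foxo3 of -1.09 ± 0.12 in Dorsal and -0.26 ± 0.62 in Ventral libraries (exact p = 0.0159, adjusted p = 0.0317). The groups overlap for this pair, since the lowest Ventral ratio (-0.934) lies within the Dorsal range of -1.24 to -0.918. The ratio of Foxn2 to Foxn3 was -1.45 ± 0.37 and -2.04 ± 0.19 (exact p = 0.0159, adjusted p = 0.0317), that of Foxk1 to Foxk2 was 0.25 ± 0.33 and -0.35 ± 0.24, and that of Sox8 to Sox9 was -0.30 ± 0.46 and -1.05 ± 0.21 (both exact p = 0.0317, adjusted p = 0.0423). The ratio of Foxk1 to Foxk2 did not pass without Dorsal replicate 2 or 3 (exact p = 0.0556 in both). The difference of the ratio of Sox5 to Sox6 was -0.17 (exact p = 0.357), and that of Foxp1 to Foxp4 was 0.20 (exact p = 0.802), within the spread of the libraries. No background share was computed for pairs of other genes.

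**Figure D5:**
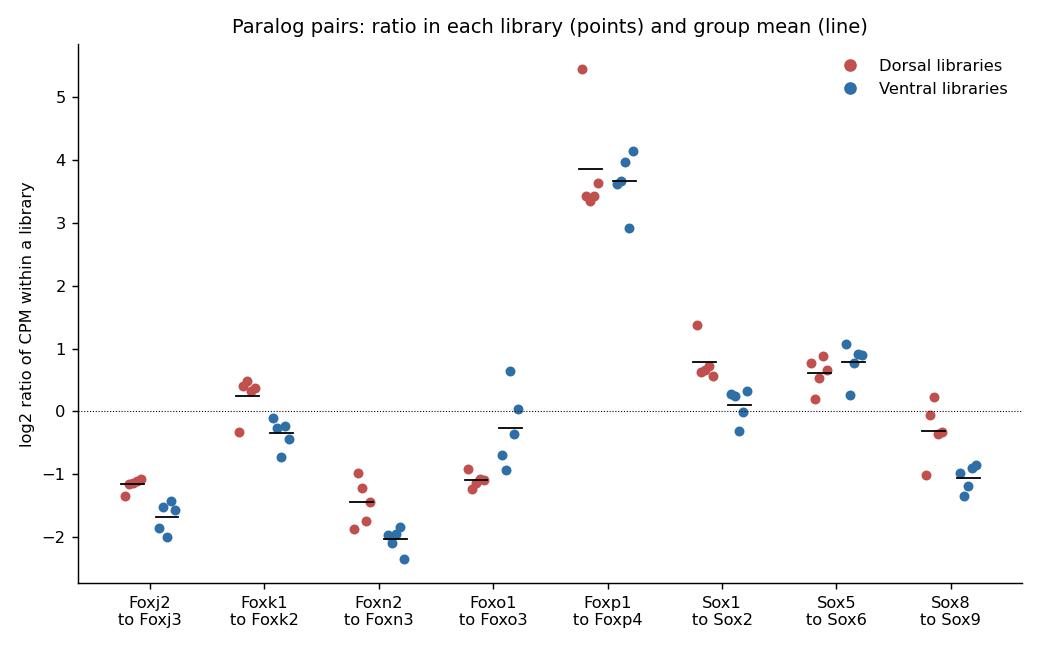
Log2 ratio of CPM between paralogs within each library (points) with the group mean (line), Dorsal in red and Ventral in blue, for the 8 pairs with a mean of at least 10 CPM in both genes. The groups do not overlap for Foxj2 to Foxj3 and for Sox1 to Sox2, and Foxp1 to Foxp4 reaches 5.46 in Dorsal replicate 1.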

How the data were processed

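Members, lists and tests were chosen with earlier results of these data known. RNA precipitated by TRAP was amplified with the Ovation RNAseq V2 kit, made into TruSeq libraries and read as 50 bp paired ends, and the authors used STAR 2.5.2b to align it to GRCm38 and HTSeq-count 0.7.2 to count it. The deposited values are whole-number counts of pairs for each Ensembl gene, not normalized or filtered, and the annotation release and strand setting are not given in the sources used here. Symbols, coordinates and exonic lengths came from GENCODE M21, which matched 54809 of 54838 identifiers, and promoters from a RefSeq table (GRCm38.p6), in which 41 of the 63 members were found.

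Genes with CPM above 1 in at least 2 of the 10 libraries were tested in R 4.3.3 with edgeR 4.0.16 (TMM, quasi-likelihood test, Benjamini-Hochberg adjustment over all tested genes), after a run on simulated data. Standard errors were obtained by dividing the absolute fitted difference by the root of its F statistic. Every tested member was counted (some genes are not reported by name here), and values per library were given for called members and for a list of well-known ones. Floors cover counting error only, since amplified reads are not independent molecules. No libraries were duplicates. Alternatives were other scalings, filters, tests (DESeq2 1.42.0) and thresholds, the replicate number as a block, GC and length offsets (mgcv 1.9.3), covariates and each library left out. The dispersions of edgeR 3 and the paralog ratios were added after the data were seen.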

Additional observations from a re-analysis of the deposited data

Results flagged for a closer look

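Within each group of 5 libraries, a library was singled out where its gap to the nearest other library exceeded 0.71 of the group's whole range (Dixon's test). This held for 8 of the 70 groups (35 members in 2 groups), and chance alone flags about 1 in 20, or 3.5 of 70.

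Dorsal replicate 1 stood apart for Sox1 (103 CPM, the highest) and for Foxp4 (4.13 CPM, the lowest). Sox1 was called dorsal-enriched without it as well. Dorsal replicate 2 was the highest for Foxp2 (6.03 CPM) and for Foxm1 (2.14 CPM). Without that library Foxp2 stayed called, and Foxm1 was called ventral-enriched. Dorsal replicate 3 was the highest for Foxi2 (6.19 CPM), and without it the sign of the Foxi2 difference turned. Ventral replicate 2 was the highest for Foxp2 (1.58 CPM) and Sox6 (28.0 CPM) and the lowest for Sox8 (9.84 CPM), and without it neither Sox6 nor Sox8 was called.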

How the results depend on the processing

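Over the 17 alternative settings and the 10 fits with a library left out, Sox1 and Sox11 were called dorsal-enriched in each. The 9 members called dorsal-enriched became 4 at an adjusted p below 0.01 (Sox1, Sox11, Foxn2 and Foxq1). They became 2 with the percentage of read pairs assigned to no feature as a covariate, and 7 to 9 with a library left out. Over all genes, the 2636 dorsal-enriched calls became 1498, 833 and, with protein-coding genes fitted alone, 1665, and the 1655 ventral-enriched calls became 897 at the stricter threshold and 339 with the covariate. The dorsal-enriched calls ranged from 2104 to 2670 with a library left out and the ventral-enriched ones from 1215 to 1815. Why the covariate lowers the counts was not tested.

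Same-numbered Dorsal and Ventral libraries did not deviate together (correlations of -0.0317 to 0.0695), so that the numbers are not read as pairs. With the number as a replicate block, 11 members were called dorsal-enriched (Foxf2 and Sox21 added) and 1 ventral-enriched (Sox10, -0.85), and 2656 and 1672 genes in all, of which 2496 and 1533 were also called without it. The ventral-enriched count of members was 0 to 1 with a library left out, being 1 without Dorsal replicate 2 (Foxm1) and without Ventral replicate 1 or 2 (Sox10).

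With the covariate, the sign turned for Foxc1 (-0.92), Foxf2 (-1.03), Foxi2 (-3.12), Foxj3 (0.028), Foxk2 (0.0061), Foxp4 (-0.24), Sox12 (-0.50), Sox17 (1.90) and Sox8 (-0.037). Sox17 turned with the block and the GC and length offsets together (0.067). Foxk2, at -0.02, turned with RLE factors (0.013), upper-quartile factors (0.025), the filter of 5 libraries (0.0078), DESeq2 (0.013), protein-coding genes alone (0.010) and either set of offsets (0.15). With a library left out, the log2 fold change ranged from -0.039 to 0.018 for Foxk2 and from -0.23 to 1.67 for Foxi2, and the difference of the Foxp1 to Foxp4 ratio from -0.20 to 0.32. Library depth limits Foxq1, Foxp2, Foxj1, Foxm1 and the other members near 1 CPM, whose counts are few.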
